A study of Mus musculus with 6 samples.

Results

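The replication fork and its nucleotide supply were followed as a set of 47 genes in CAD cells, a mouse catecholaminergic neuronal cell line that divides in culture. The set was taken by gene symbol. It holds genes for origin licensing and firing, the replicative polymerases, the sliding clamp and its loader, deoxynucleotide synthesis and the assembly of chromatin behind the fork, and leaves out the MCM helicase subunits. All 47 symbols had a row among the 24318 genes of the table, and all 47 were among the 11420 genes whose mean level over the 6 libraries reached 1 FPKM, a fragment count divided by transcript length and by the mapped fragments of the library. The tested libraries, 3 in number and named siCircGigyf2 here, came from CAD cells given an siRNA labelled circGIGYF2, against a circular RNA of the Gigyf2 gene. The other 3, named siNC, came from CAD cells given the siRNA labelled NC. All 6 were made from total RNA with ribosomal RNA removed, and the time after siRNA delivery, its dose and any separate cultures behind the replicates are not given in the sources used here. The p-values therefore measure the spread between these libraries, which may be technical.

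Before a cell copies its DNA, the origin recognition complex, CDC6 and CDT1 load an inactive helicase onto origins, and the CDC7-DBF4 kinase then helps to turn it into an active fork with CDC45 and the GINS complex. Polymerase alpha with primase starts each new strand, polymerases delta and epsilon extend it while clamped to PCNA, and FEN1 and LIG1 join the short pieces of the lagging strand. Many of these genes are known targets of E2F transcription factors and are transcribed at the entry into S phase, so their RNA is known as a mark of dividing cells.

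The libraries were compared as labelled. Gigyf2, the host gene, fell to a mean of 21.4 ± 0.330 FPKM (SD, n = 3) in siCircGigyf2 libraries, against 23.2 ± 0.0749 FPKM in siNC libraries (limma adjusted p = 0.0287). This FPKM is given per gene and does not separate linear from circular molecules. The circular RNA itself was not analysed here. Relative sequencing depth, read from the steps between low values, was 0.802 to 0.914 in siCircGigyf2 libraries and 0.952 to 1 in siNC libraries, with siNC replicate 1 set to 1. Of 12 catecholaminergic markers, 11 averaged at least 1 FPKM, with Th, tyrosine hydroxylase, at 2.82 to 3.77 FPKM in siCircGigyf2 libraries and 3.53 to 4.85 FPKM in siNC libraries. Summed FPKM of these markers was 1306 to 1349 in siCircGigyf2 libraries and 1406 to 1435 in siNC libraries, and most of that sum is Chgb, at 965 to 998 FPKM in siCircGigyf2 libraries and 1058 to 1097 FPKM in siNC libraries. Hand2, at 167 to 171 FPKM in siCircGigyf2 libraries and 146 to 152 FPKM in siNC libraries, and Slc18a1, at 4.67 to 5.01 FPKM in siCircGigyf2 libraries and 3.48 to 3.80 FPKM in siNC libraries, lay the other way. The sum of 8 neuronal markers was 556 to 567 in siCircGigyf2 libraries and 427 to 434 in siNC libraries. Tubb3, at 172 to 187 FPKM in siCircGigyf2 libraries and 116 to 123 FPKM in siNC libraries, was the largest part. Ina, Gap43, Elavl3 and Map2 also lay higher in every siCircGigyf2 library. Elavl4, at 42.9 to 44.9 FPKM in siCircGigyf2 libraries and 45.9 to 48.9 FPKM in siNC libraries, lay the other way. Snap25 and Stmn2 had overlapping groups. The 4 astrocyte markers summed to at most 0.202 FPKM in any library, with Aqp4 and Aldh1l1 at 0 in all 6. The 4 microglial markers summed to 0.632 to 1.147 FPKM in siCircGigyf2 libraries and 1.42 to 1.69 FPKM in siNC libraries, the 4 oligodendrocyte markers to at most 1.19, the 4 fibroblast markers to at most 4.13 and the 3 endothelial markers to at most 7.13 FPKM. Most of the microglial sum is Tmem119, while Aif1 lay the other way, at 0.0839 to 0.228 FPKM in siCircGigyf2 libraries and at most 0.0701 FPKM in siNC libraries. Nearly all of the endothelial sum is Pecam1, with overlapping groups. Exons of 18 of the 47 genes overlap those of another gene in the GENCODE M21 annotation, 13 of them a protein-coding gene. Whether counting used strand is not given, so reads from such overlaps cannot be told apart. The part of depth, marker levels and overlaps in the results below was not tested.

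Replication genes fell more often than they rose in the siCircGigyf2 libraries, and among those that passed the mean fell by 7.22% for Pold2 at the least and fell by 50.7% for Cdc6 at the most. Of the 47, 28 fell, 1 rose and 18 did not pass a limma adjusted p of 0.05. Over all genes tested, 38.2% passed, 18.7% lower and 19.5% higher. Differences are siCircGigyf2 minus siNC, taken between mean log2(FPKM + 1) values. Their median was -0.20 over the 47 genes and 0.00035 over all genes tested. The 3 siCircGigyf2 libraries lay below the 3 siNC libraries for 32 of the 47, against 25.3% of all genes tested, and above them for 1, against 25.7%. Summed over the 47 genes, FPKM came to 751, 744 and 715 in siCircGigyf2 libraries, against 866, 904 and 902 in siNC libraries. In bulk RNA, fewer cells in S phase and less of these RNAs per cell cannot be told apart.

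**Figure D1:**
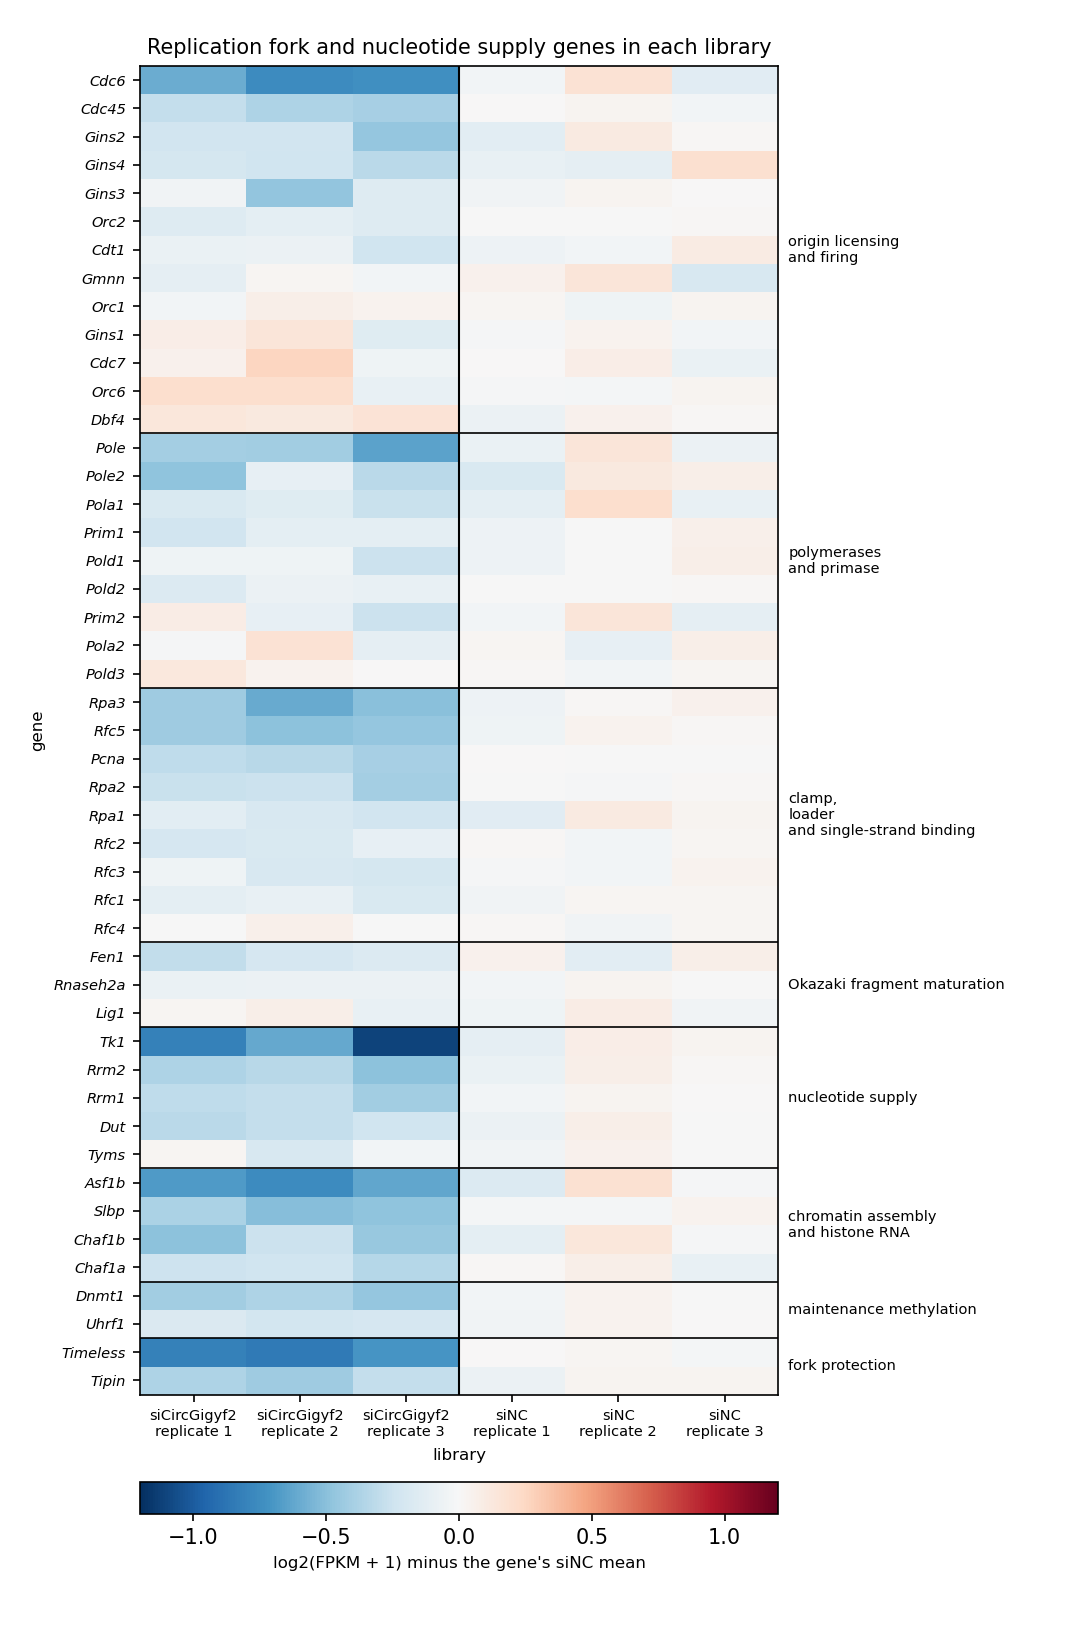
Heat map of the 47 genes (rows, grouped by role and ordered by difference within a role) in the 6 libraries (columns), coloured by log2(FPKM + 1) minus the gene's mean in the siNC libraries. The 3 siCircGigyf2 columns are blue, below the siNC mean, for most rows, and Dbf4 is the gene that passed in the other direction.

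By role, all 4 genes of chromatin assembly and histone RNA, both maintenance methylation genes and both fork protection genes fell, as did 4 of 5 nucleotide supply genes and 7 of 9 clamp, loader and single-strand binding genes. Among the other roles, 3 of 9 polymerase and primase genes, 5 of 13 origin genes and 1 of 3 genes of Okazaki fragment maturation fell. The origin gene Dbf4 rose. Over all genes tested, 18.7% fell and 19.5% rose. The median log2 differences were -0.43 for chromatin assembly, -0.31 for methylation, -0.58 for fork protection, -0.34 for nucleotide supply, -0.18 for clamp and loader, -0.12 for polymerases, -0.13 for origins and -0.07 for Okazaki fragment maturation. These groups hold 2 to 13 genes each, and the difference between groups was not tested.

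**Figure D2:**
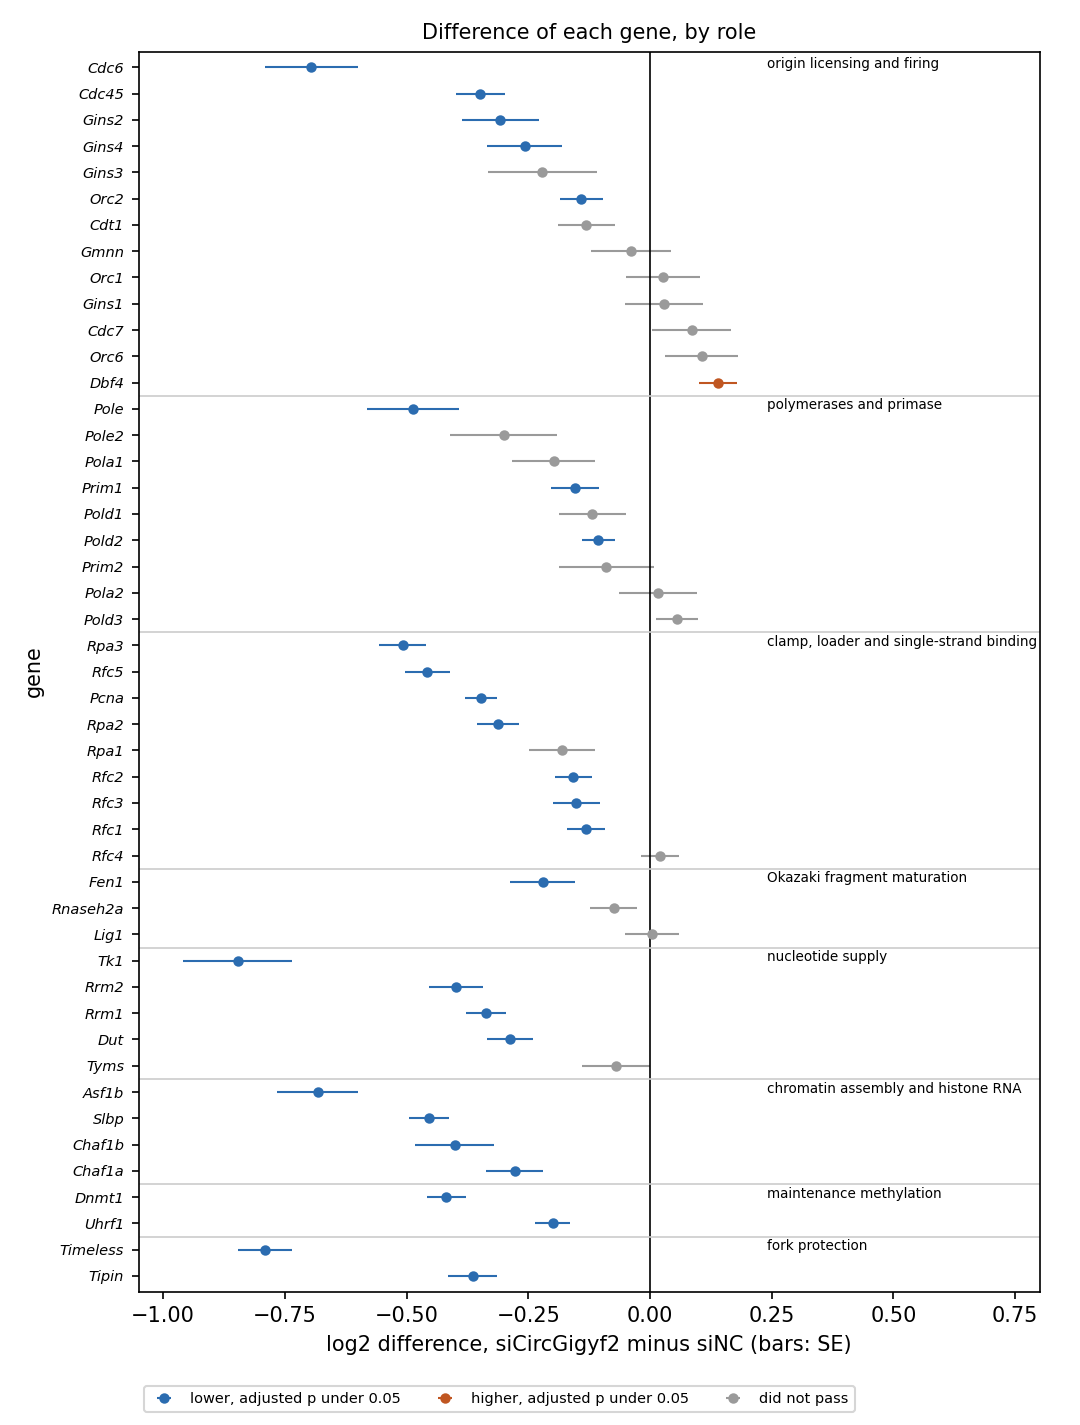
Log2 difference of each gene, siCircGigyf2 minus siNC (horizontal axis, log2(FPKM + 1) scale), with its standard error, by role. Blue points fell, the orange point rose and grey points did not pass. Tk1 at -0.85, Timeless at -0.79, Cdc6 at -0.70 and Asf1b at -0.68 lie farthest from 0.

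Promoters are shown because E2F and NF-Y sites are the known features that many S-phase genes share, and the choice of genes did not use them. RefSeq promoters on build GRCm38.p6 (250 bases before to 50 after the transcript start) matched 39 of the 47 genes by symbol, 7 of them with more than 1 promoter. The table's own build, mm9, is not used for these positions. The E2F words searched were TTTCCCGC, TTTCGCGC, TTTGCCGC and TTTGGCGC on both strands. At least 1 of them stood in the promoters of 12 of the 39 genes (30.8%), against 2.605% of all 27025 genes in the promoter table and 4.86% of the 8702 tested genes found there. Of the 12 genes with a word, 4 fell and 8 did not pass. Of the 27 without, 19 fell, 1 rose and 7 did not pass. The median log2 difference was -0.17 with a word and -0.28 without. A word is a match of letters, not a measured binding site. The 4 genes with a word and the smallest p are shown with their E2F words in capitals, 5′ to 3′ on the gene's strand. GCGCGAAA and GCGGGAAA are TTTCGCGC and TTTCCCGC read on the opposite strand.
Dnmt1 (GRCm38.p6 chr9:20952805-20952872, minus strand, word beginning 219 bases before the start): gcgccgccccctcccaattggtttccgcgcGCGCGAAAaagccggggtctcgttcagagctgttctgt
Cdc6 (chr11:98907983-98908050, plus strand, 138 bases before the start): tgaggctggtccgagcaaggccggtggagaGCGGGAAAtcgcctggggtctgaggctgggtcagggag
Uhrf1 (chr17:56304098-56304165, plus strand, 185 bases before the start): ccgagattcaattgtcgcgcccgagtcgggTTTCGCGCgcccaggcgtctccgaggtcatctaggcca
Rfc3 (chr5:151651181-151651248, minus strand, 10 bases before the start, with a second word in the same stretch): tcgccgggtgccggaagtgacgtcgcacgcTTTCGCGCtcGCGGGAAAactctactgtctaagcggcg

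The CCAAT word, which NF-Y binds, and the CHR word TTTGAA, known from cell cycle promoters that the DREAM and MuvB complexes bind, were searched in the same way. CCAAT stood in the promoters of 22 of the 39 genes (56.4%), against 41.1% of all genes in the table and 43.4% of tested genes. Of the 22 genes with CCAAT, 16 fell and 6 did not pass, while of the 17 without it 7 fell, 1 rose and 9 did not pass. The median log2 difference was -0.21 with CCAAT and -0.13 without. Over all genes tested, with or without the word, 18.7% fell. Splits of the genes by a promoter word, E2F and TTTGAA included, were not tested. TTTGAA stood in 8 of the 39 (20.5%), against 20.2% of all genes and 13.4% of tested genes. Of these 8 genes 5 fell, 1 rose and 2 did not pass, while of those without it 18 fell, 0 rose and 13 did not pass. The median log2 difference was -0.22 with TTTGAA and -0.20 without. Stretches with CCAAT in capitals (ATTGG on the opposite strand) are given for 3 further genes of small p, chosen after their values were seen.
Slbp (GRCm38.p6 chr5:33652648-33652712, minus strand, word beginning 108 bases before the start): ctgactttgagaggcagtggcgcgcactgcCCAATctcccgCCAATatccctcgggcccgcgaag
Pcna (chr2:132253233-132253297, minus strand, 87 bases before the start): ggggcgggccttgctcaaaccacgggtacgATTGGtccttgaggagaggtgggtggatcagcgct
Rpa3 (chr6:8259192-8259257, minus strand, 86 bases before the start): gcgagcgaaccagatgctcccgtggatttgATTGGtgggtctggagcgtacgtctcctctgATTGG

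Of the origin licensing genes, the loader Cdc6 and the complex subunit Orc2 fell. Cdc6, the ATPase that loads the helicase together with CDT1, had 1.72, 1.44 and 1.46 FPKM in siCircGigyf2 libraries, against 3.01, 3.62 and 2.74 FPKM in siNC libraries. The groups lie well apart, and the mean fell by 50.7% (log2 difference -0.70, SE 0.096, limma adjusted p = 0.000624). At this low level the log2(FPKM + 1) scale understates the change, which was -0.97 with a pseudocount of 0.1. Orc2, a core subunit of the origin recognition complex, averaged 8.11 ± 0.152 FPKM in siCircGigyf2 libraries and 9.05 ± 0.0710 FPKM in siNC libraries (SD, n = 3 each; log2 difference -0.14, limma adjusted p = 0.0318). The groups did not overlap. Leaving out a library other than siCircGigyf2 replicate 2 ended the Orc2 call (adjusted p from 0.0731 to 0.0913). Exons of Orc2 also overlap those of Nif3l1 on the opposite strand, and Nif3l1 had a log2 difference of -0.35 (adjusted p = 0.00361).

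Other licensing genes did not pass. Orc1, the ATPase subunit of the origin recognition complex, averaged 1.80 ± 0.102 FPKM in siCircGigyf2 libraries and 1.75 ± 0.0920 FPKM in siNC libraries (SD, n = 3 each). Orc6 averaged 18.1 ± 2.16 FPKM in siCircGigyf2 libraries and 16.7 ± 0.388 FPKM in siNC libraries (log2 difference 0.11, adjusted p = 0.292), and its siCircGigyf2 replicate 3, at 15.6 FPKM, lay below all siNC libraries while the other 2 lay above them. Without that library the log2 difference of Orc6 was 0.20 and passed (adjusted p = 0.00806). Vps35, whose exons overlap those of Orc6 on the opposite strand, reached 104 FPKM and had a log2 difference of 0.02 (adjusted p = 0.673). Cdt1, the second helicase loader, averaged 29.1 ± 1.97 FPKM in siCircGigyf2 libraries and 32.0 ± 2.01 FPKM in siNC libraries, and Gmnn, the geminin that inhibits CDT1 after licensing, 11.5 ± 0.577 FPKM in siCircGigyf2 libraries and 11.9 ± 1.52 FPKM in siNC libraries. Neither passed (adjusted p = 0.106 and 0.738), although the Cdt1 groups did not overlap.

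Of the genes that turn a loaded helicase into a fork, Cdc45 and 2 of 4 GINS genes fell. Cdc45, which joins the helicase at the fork, had 7.44, 6.94 and 6.80 FPKM in siCircGigyf2 libraries, against 9.27, 9.51 and 9.004 FPKM in siNC libraries. The mean fell by 23.7%, with no overlap (log2 difference -0.35, SE 0.051, limma adjusted p = 0.000867). Gins2, a subunit of the GINS complex, had 11.9, 11.9 and 9.89 FPKM in siCircGigyf2 libraries, against 12.8, 15.2 and 14.3 FPKM in siNC libraries (log2 difference -0.31, adjusted p = 0.0145). The Gins2 groups lie close together at their edges, and the call was lost without siNC replicate 2 (adjusted p = 0.0537). Gins4 also fell (-0.26, adjusted p = 0.0279), with siNC replicate 3 at 23.5 FPKM above the other siNC libraries at 18.9 and 19.1. With that library left out its difference was -0.16 (adjusted p = 0.0409). Gins4 did not pass with siCircGigyf2 replicate 2 (0.0559) or 3 (0.0846) left out, nor with no filter on low values (0.0791) or no mean-variance trend (0.0523). Gins3 and Gins1, the other GINS subunits, did not pass, at -0.22 (adjusted p = 0.150) and 0.03 (0.803). Exons of Gins2 overlap those of Gse1 on the opposite strand, and Gse1 differed by -0.46 (adjusted p = 2.95e-05).

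The kinase regulator Dbf4 was the 1 gene of the 47 that rose. It had 26.5, 26.2 and 27.1 FPKM in siCircGigyf2 libraries, against 22.9, 24.9 and 24.4 FPKM in siNC libraries. The siCircGigyf2 libraries lay above all siNC libraries, and the group means differed by 10.5% of the siNC mean (log2 difference 0.14, SE 0.039, limma adjusted p = 0.0218). Dbf4 did not pass with siCircGigyf2 replicate 3 left out (adjusted p = 0.0656), nor with siNC replicate 1 left out (0.0819). Cdc7, the kinase that DBF4 activates, averaged 8.78 ± 1.09 FPKM in siCircGigyf2 libraries and 8.19 ± 0.533 FPKM in siNC libraries (SD, n = 3 each), with overlapping groups (adjusted p = 0.441).

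Of 9 polymerase and primase genes, Pole, Prim1 and Pold2 fell. Pole, which encodes a subunit of polymerase epsilon, had 2.35, 2.34 and 1.86 FPKM in siCircGigyf2 libraries, against 3.22, 3.93 and 3.23 FPKM in siNC libraries. The mean fell by 36.9% (log2 difference -0.49, SE 0.094, limma adjusted p = 0.00375), with no overlap. Its partner Pole2 averaged 4.11 ± 0.689 FPKM in siCircGigyf2 libraries and 5.28 ± 0.664 FPKM in siNC libraries (SD, n = 3 each) and did not pass (adjusted p = 0.0572), but passed without siCircGigyf2 replicate 2 (0.0184) or siNC replicate 1 (0.0267). Prim1, the catalytic subunit of primase, had 13.1, 14.3 and 14.3 FPKM in siCircGigyf2 libraries, against 14.9, 15.5 and 16.2 FPKM in siNC libraries (log2 difference -0.15, adjusted p = 0.0373). Pold2, an accessory subunit of polymerase delta, had 35.4, 37.8 and 37.2 FPKM in siCircGigyf2 libraries, against 39.4, 39.5 and 40.0 FPKM in siNC libraries (log2 difference -0.11, adjusted p = 0.0370). The groups did not overlap for either, but both calls depend on single libraries. Prim1 did not pass with siCircGigyf2 replicate 1 left out (adjusted p = 0.109), nor with the siNC libraries 2 (0.0842) or 3 (0.125) left out, nor with no filter (0.0703) or no trend (0.0523). Pold2 passed with siCircGigyf2 replicate 2 left out, but with none of the other 5 (0.0613 to 0.104), nor with no trend (0.0729).

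The remaining polymerase genes did not pass. The catalytic subunits Pold1 of polymerase delta and Pola1 of polymerase alpha differed by -0.12 (limma adjusted p = 0.203) and -0.20 (0.0991), and the Pola1 groups did not overlap. Prim2, Pola2 and Pold3, which are non-catalytic subunits of primase, polymerase alpha and polymerase delta, differed by -0.09, 0.02 and 0.06 (adjusted p = 0.499, 0.896 and 0.336), each with overlapping groups.

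The clamp gene and 2 of 3 genes for the single-strand binding complex fell, and Rpa3 and Pcna had the highest FPKM of the set. Pcna, the sliding clamp that holds polymerases on DNA, had 73.3, 72.01 and 68.6 FPKM in siCircGigyf2 libraries, against 91.5, 90.8 and 90.5 FPKM in siNC libraries. The gap between the groups was wider than the range within either, and the mean fell by 21.6% (log2 difference -0.35, SE 0.032, limma adjusted p = 8.83e-05). Rpa3, the small subunit of replication protein A, which coats single-stranded DNA, had 77.0, 68.0 and 73.1 FPKM in siCircGigyf2 libraries, against 99.0, 104.8 and 107 FPKM in siNC libraries (log2 difference -0.51, SE 0.048, adjusted p = 0.000101). Rpa2, its middle subunit, averaged 26.0 ± 1.49 FPKM in siCircGigyf2 libraries and 32.5 ± 0.298 FPKM in siNC libraries (SD, n = 3 each; limma adjusted p = 0.000676). The large subunit Rpa1 averaged 7.67 ± 0.299 FPKM in siCircGigyf2 libraries and 8.85 ± 0.841 FPKM in siNC libraries (SD, n = 3 each). It did not pass (adjusted p = 0.0620), except without siNC replicate 1 (0.0152), which at 7.93 FPKM overlapped the siCircGigyf2 libraries.

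**Figure D3:**
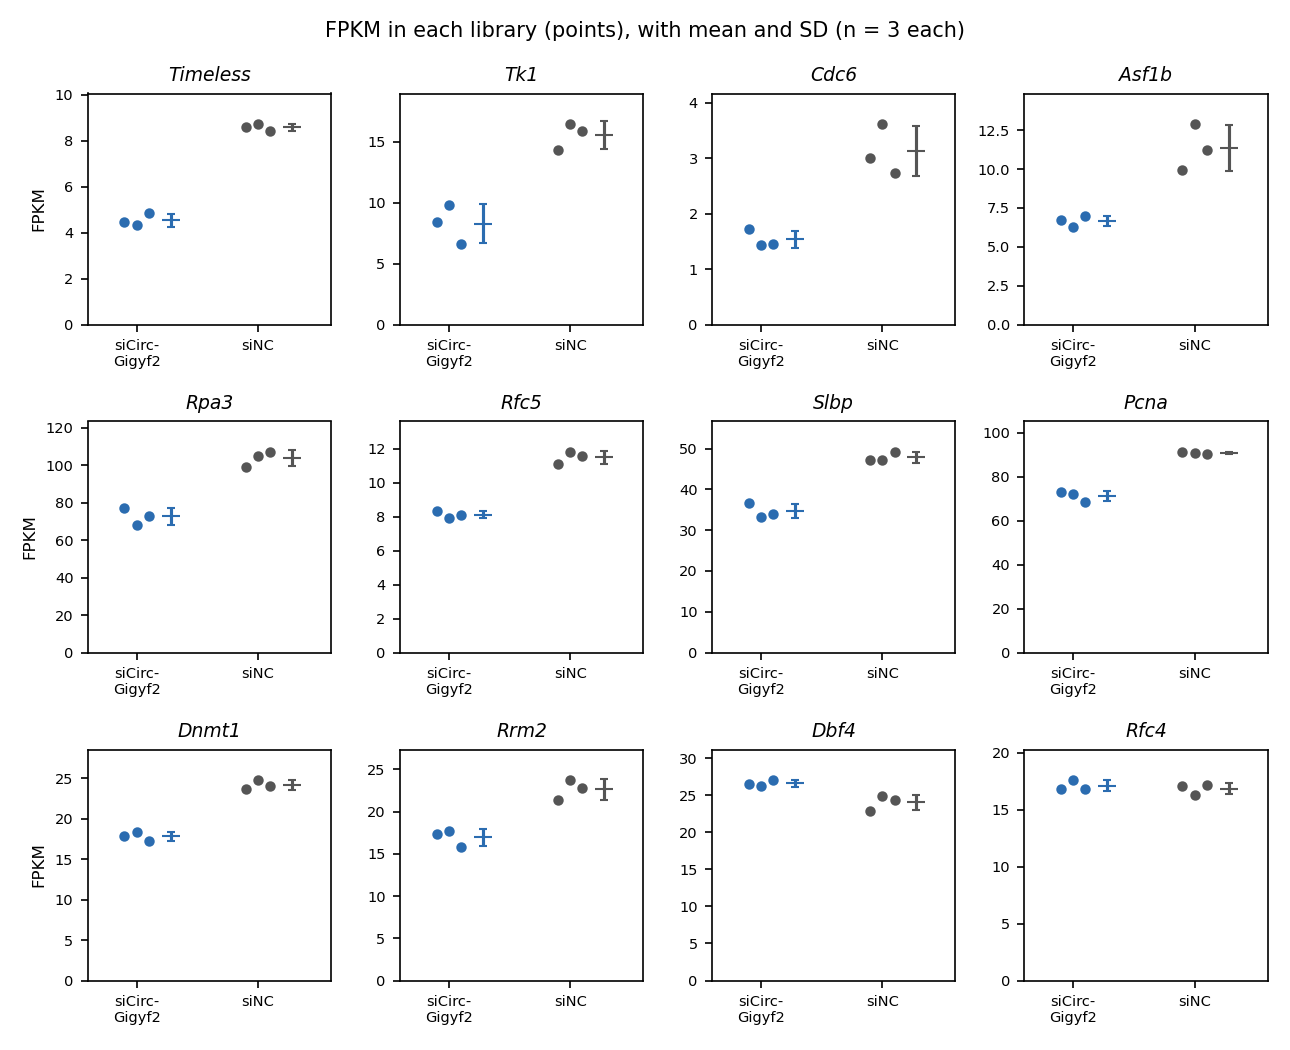
FPKM (vertical axes, from 0) of 12 genes in each siCircGigyf2 library (blue) and each siNC library (dark grey), with the mean and SD of 3 libraries beside the points. The groups are apart for the first 11 panels, with Dbf4 higher in siCircGigyf2 libraries, and overlap for Rfc4.

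Of the 5 clamp loader genes, 4 fell. The replication factor C complex, which opens PCNA and sets it on DNA, has a large subunit, Rfc1, and small subunits Rfc2, Rfc3, Rfc4 and Rfc5. Rfc5 had 8.33, 7.91 and 8.10 FPKM in siCircGigyf2 libraries, against 11.1, 11.8 and 11.6 FPKM in siNC libraries (log2 difference -0.46, SE 0.046, limma adjusted p = 0.000132). Rfc1, Rfc2 and Rfc3 had log2 differences of -0.13, -0.16 and -0.15 (adjusted p = 0.0279, 0.0116 and 0.0354). Rfc4 averaged 17.1 ± 0.463 FPKM in siCircGigyf2 libraries and 16.8 ± 0.457 FPKM in siNC libraries, with overlapping groups (SD, n = 3 each; adjusted p = 0.719). Rfc1 did not pass with siCircGigyf2 replicate 1 (adjusted p = 0.0536) or 3 (0.0862), or siNC replicate 2 (0.0850) or 3 (0.0869), left out. Rfc3 passed with siCircGigyf2 replicate 1 left out, but with none of the other 5 (0.0569 to 0.114), nor with no filter (0.0719) or no trend (0.0613). Exons of Rfc5 overlap those of Wsb2, and those of Rfc2 overlap Lat2, on the opposite strand. Both neighbours rose, by a log2 difference of 0.27 for Wsb2 (adjusted p = 0.000554) and 0.43 for Lat2 (0.0145). Rfc4 exons also overlap those of a gene on the opposite strand, Eif4a2. It reached 156.5 FPKM and had a log2 difference of -0.02 (adjusted p = 0.627).

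Of the genes for 3 enzymes that finish the lagging strand, Fen1 fell. Fen1, the flap endonuclease, had 5.89, 6.33 and 6.53 FPKM in siCircGigyf2 libraries, against 7.74, 6.75 and 7.89 FPKM in siNC libraries (log2 difference -0.22, SE 0.067, limma adjusted p = 0.0295). The groups did not overlap but lay close together, and Fen1 did not pass with siCircGigyf2 replicate 1 (adjusted p = 0.0915) or 2 (0.0555), or siNC replicate 1 (0.0922) or 3 (0.1001), left out, nor with no filter (0.0717). Exons of Fen1 overlap those of Tmem258 on the opposite strand, which reached 157 FPKM and had a log2 difference of -0.25 (adjusted p = 0.0955). Rnaseh2a, the catalytic subunit of the ribonuclease that removes RNA from DNA, had 6.22, 6.27 and 6.24 FPKM in siCircGigyf2 libraries, against 6.48, 6.82 and 6.58 FPKM in siNC libraries. These groups did not overlap, yet the difference of -0.07 did not pass (adjusted p = 0.256). Prdx2, whose exons overlap those of Rnaseh2a on the opposite strand, reached 410 FPKM and had a log2 difference of 0.004 (adjusted p = 0.926). Lig1, the DNA ligase of the lagging strand, averaged 14.7 ± 0.882 FPKM in siCircGigyf2 libraries and 14.6 ± 0.833 FPKM in siNC libraries (SD, n = 3 each; adjusted p = 0.967).

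Of 5 genes of deoxynucleotide supply, 4 fell. Tk1, the S-phase thymidine kinase of the salvage pathway, had 8.40, 9.80 and 6.63 FPKM in siCircGigyf2 libraries, against 14.3, 16.5 and 15.9 FPKM in siNC libraries. The mean fell by 46.8% (log2 difference -0.85, SE 0.112, limma adjusted p = 0.000511), the difference farthest from 0 among the 47 genes on this scale, and siCircGigyf2 replicate 3 was the lowest library. Rrm1, the large subunit of ribonucleotide reductase, which makes deoxyribonucleotides from ribonucleotides, had 30.2, 30.6 and 27.98 FPKM in siCircGigyf2 libraries, against 36.6, 38.5 and 37.7 FPKM in siNC libraries (log2 difference -0.34, adjusted p = 0.000345). Its small subunit Rrm2 averaged 17.0 ± 1.04 FPKM in siCircGigyf2 libraries and 22.7 ± 1.22 FPKM in siNC libraries (SD, n = 3 each; adjusted p = 0.000623). Dut, the pyrophosphatase that keeps dUTP low, averaged 15.0 ± 0.467 FPKM in siCircGigyf2 libraries and 18.5 ± 0.986 FPKM in siNC libraries (limma adjusted p = 0.00161). Tyms, thymidylate synthase, averaged 4.79 ± 0.445 FPKM in siCircGigyf2 libraries and 5.06 ± 0.189 FPKM in siNC libraries, with overlapping groups (adjusted p = 0.466).

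All 4 genes that rebuild chromatin on new DNA or serve histone RNA fell. Slbp, the stem-loop binding protein that histone mRNAs need, had 36.6, 33.3 and 34.0 FPKM in siCircGigyf2 libraries, against 47.1, 47.1 and 49.3 FPKM in siNC libraries (log2 difference -0.45, SE 0.041, limma adjusted p = 8.13e-05). Asf1b, a histone chaperone of dividing cells, had 6.69, 6.30 and 6.99 FPKM in siCircGigyf2 libraries, against 9.93, 12.9 and 11.2 FPKM in siNC libraries (log2 difference -0.68, SE 0.084, adjusted p = 0.000342). Neither pair of groups overlapped. Chaf1a and Chaf1b, subunits of chromatin assembly factor 1, which deposits histones at PCNA, had log2 differences of -0.28 and -0.40 (adjusted p = 0.00565 and 0.00459). Exons of Chaf1a overlap those of Ubxn6 on the opposite strand, and Ubxn6 differed by -0.10 (adjusted p = 0.0502).

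Both genes that copy DNA methylation onto the new strand fell. Dnmt1, the maintenance methyltransferase, had 17.9, 18.4 and 17.2 FPKM in siCircGigyf2 libraries, against 23.6, 24.9 and 24.03 FPKM in siNC libraries (log2 difference -0.42, SE 0.039, limma adjusted p = 9.58e-05). Uhrf1, which recruits DNMT1 to hemimethylated DNA, had 23.1, 22.2 and 22.5 FPKM in siCircGigyf2 libraries, against 25.3, 26.8 and 26.2 FPKM in siNC libraries (log2 difference -0.20, SE 0.036, adjusted p = 0.00270). Neither gene's groups overlapped, and on the means Dnmt1 fell by 26.2% and Uhrf1 fell by 13.4%. Each has more than 1 promoter in the RefSeq table, and the E2F words stand in the 1 shown above for each gene and not in the others.

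Both genes for the partner proteins that steady a paused fork fell as well. Timeless had 4.44, 4.31 and 4.87 FPKM in siCircGigyf2 libraries, against 8.58, 8.74 and 8.41 FPKM in siNC libraries. The mean fell by 47.1%, with narrow spread in both groups, and this was the smallest p of the 47 genes (log2 difference -0.79, SE 0.056, limma adjusted p = 2.95e-05). Tipin, which binds TIMELESS, had 12.8, 12.3 and 13.6 FPKM in siCircGigyf2 libraries, against 16.1, 17.3 and 17.3 FPKM in siNC libraries, with no overlap (log2 difference -0.36, SE 0.050, adjusted p = 0.000640).

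Levels are compared here per length, in FPKM. In siNC libraries the means ran from 1.75 FPKM for Orc1 to 103.7 FPKM for Rpa3, with a median of 14.1 FPKM. Genes that fell stood at both ends, with Cdc6 at 3.12 and Pole at 3.46 FPKM and Pcna at 90.9 FPKM in siNC libraries. Several of the scarce genes did not pass, such as Orc1, Gins3 (2.12 FPKM) and Gins1 (4.41 FPKM).

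**Figure D4:**
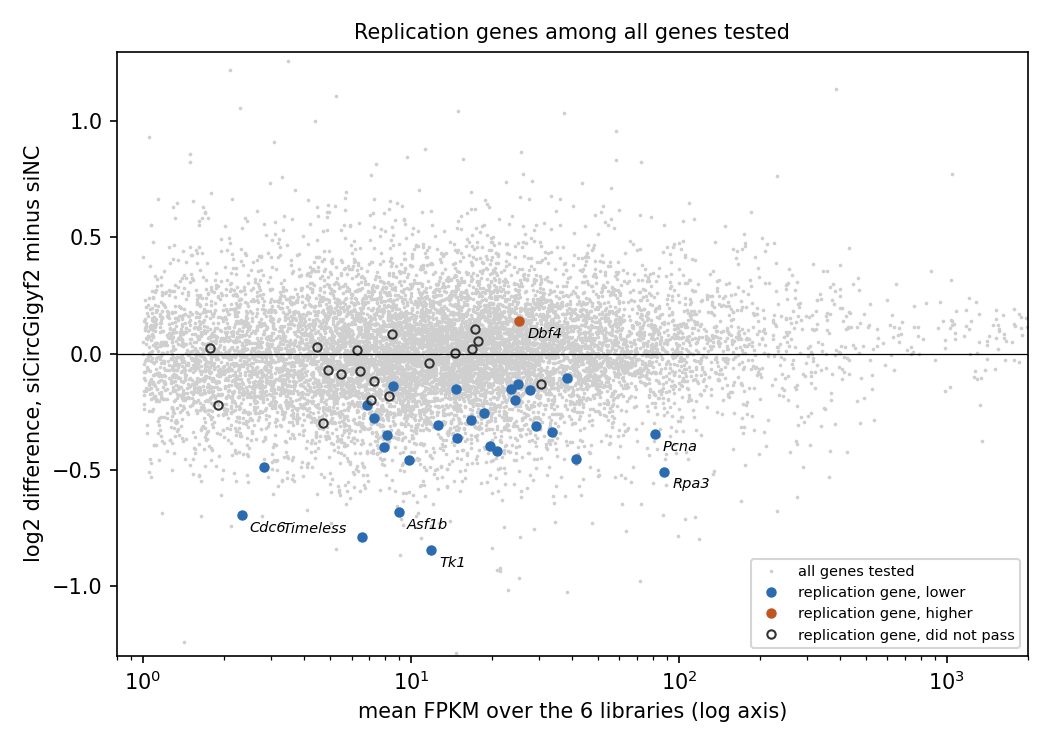
Log2 difference, siCircGigyf2 minus siNC, against mean FPKM over the 6 libraries (log axis) for all genes tested (light grey points; 38 lie outside the axes) and for the 47 replication genes. Filled blue genes fell, the filled orange gene, Dbf4, rose, and open circles did not pass. The genes that fell span the range of levels from Cdc6 to Rpa3.

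Further genes of replication and nucleotide synthesis, with no member of the 47 and no subunit of the MCM helicase ring, gave falls more often than rises. Of 57, all tested, 27 fell, 4 rose and 26 did not pass, with a median log2 difference of -0.13, where 18.7% of all genes tested fell and 19.5% rose. Paics, an enzyme of purine synthesis, had 71.3, 70.9 and 74.1 FPKM in siCircGigyf2 libraries, against 88.1, 89.5 and 89.2 FPKM in siNC libraries (limma adjusted p = 0.000110). Ppat, the first enzyme of that pathway, averaged 14.0 ± 0.151 FPKM in siCircGigyf2 libraries and 18.3 ± 0.645 FPKM in siNC libraries (SD, n = 3 each; adjusted p = 0.000183). Mcm10, a fork initiation factor outside the helicase ring, had 3.71, 3.22 and 3.02 FPKM in siCircGigyf2 libraries, against 5.55, 6.15 and 5.01 FPKM in siNC libraries (log2 difference -0.61, adjusted p = 0.000718). These 3 were chosen as the falls of smallest p, and their groups did not overlap. Over the 57 genes, the groups lay apart with siCircGigyf2 libraries lower for 31 and higher for 7. Among all genes tested these shares were 25.3% and 25.7%. Those that rose were Pole4, a small subunit of polymerase epsilon (log2 difference 0.30, adjusted p = 0.00754), Dtymk, thymidylate kinase (0.23, 0.0303), Nme2, a nucleoside diphosphate kinase (0.11, 0.0402), and the histone chaperone Asf1a (0.13, 0.0437), named after its value was seen. Nme2 shares much of its sequence with Nme1, so its reads may be split between them. This count of 4 became 1 when siNC replicate 2 was left out, and 2 when siNC replicate 1 or 3 was.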

How the data were processed

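Libraries of ribosomal RNA-depleted total RNA from 6 CAD samples were compared, 3 siCircGigyf2 and 3 siNC. The authors deposited 1 table of FPKM per gene symbol. Per the submitters' processing notes the build was mm9; the aligner, quantifier, annotation and strand handling are not given in the sources used here. FPKM are not counts, absolute depth is unknown, and relative depth was read from steps between values under 0.3 FPKM. A change in total RNA per cell cannot be seen.

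Genes with a mean of at least 1 FPKM were tested together by limma 3.58.1 (R 4.3.3), after a log2 transform of FPKM + 1 (2 groups, empirical Bayes with mean-variance trend, two-sided, no covariates), with Benjamini-Hochberg adjustment over all genes tested and a threshold of 0.05. The test was checked on simulated data with independent normal noise, which does not cover unequal depth or technical replicates. Alternatives were pseudocount 0.1, no filter, a mean of at least 5 FPKM, scaling by quantiles or by median ratios, no trend, the replicate number as a block and leaving out each library. Promoters were from RefSeq (GRCm38.p6) and exon overlaps from GENCODE M21, both joined by symbol (Python 3.11.15, pandas 2.3.3).

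The genes and lists were chosen with earlier results of these data known. Per role, values in every library are given for the 2 genes of smallest p (3 in roles of 8 or more genes) and for any that rose. Others have means or ranges, with single libraries named where they bear on a call. The 12 genes plotted by library were chosen after their values were seen.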

Additional observations from a re-analysis of the deposited data

How the results depend on the processing

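The count of replication genes that fell (28) was 22 to 28 under the 13 alternatives. Among all genes tested the count that fell (2135) was 1684 to 2191, with 8677 to 17130 genes tested. Of the 29 replication genes called, 20 were called under every alternative that tested them. The 9 others are Orc2, Gins2, Gins4, Dbf4, Prim1, Pold2, Rfc1, Rfc3 and Fen1; the cause was not tested. The count that rose (1) was 0 without siNC replicate 1, and 0 to 1 over all left-out libraries. Without siCircGigyf2 replicate 3 the 1 gene was Orc6 (adjusted p = 0.00806) and not Dbf4 (0.0656). The count of the further genes that rose (4) was 1 without a filter on low values and 1 without the mean-variance trend, and 1 to 4 with a library left out. With the replicate number as a block, 26 replication genes fell and 1 rose; Orc2, Pold2 and Rfc3 did not pass (adjusted p = 0.0680, 0.0567 and 0.0555) and Pole2 did (0.0141). Whether the numbers pair the libraries is not given in the sources used here. Same-numbered libraries correlated in their deviations from the group means at 0.163, -0.0208 and 0.00253. Not every library correlated best with its own number. Deviations of 3 libraries per group are too few to decide whether they are paired.

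Sign changes came only with a library left out and only in genes that did not pass. Without siNC replicate 2 they were Orc1 (-0.0018), Gmnn (0.034), Pola2 (-0.034) and Rfc4 (-0.0012). Without siCircGigyf2 replicate 2 they were Cdc7 (-0.00051), Gins1 (-0.029), Pola2 (-0.062), Rfc4 (-0.00094) and Lig1 (-0.031). Lig1 also changed sign without siCircGigyf2 replicate 1 (-0.0075), siNC replicate 1 (-0.020) or siNC replicate 3 (-0.016), and over all left-out libraries the highest values were 0.056 for Orc1, 0.16 for Cdc7, 0.11 for Gins1, 0.078 for Pola2, 0.033 for Rfc4 and 0.049 for Lig1, and the lowest for Gmnn was -0.14. The filter of 5 FPKM left 40 of the 47 genes.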

Other observations

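Ratios of FPKM between 2 genes were taken within each library for 5 pairs, chosen after their values were seen. Rfc5 over Rfc4 was 0.495, 0.449 and 0.481 in siCircGigyf2 libraries, against 0.650, 0.726 and 0.677 in siNC libraries. Exons of both these genes overlap those of other genes, as given above. Pole over Pold1 was 0.322, 0.322 and 0.3001 in siCircGigyf2 libraries, against 0.444, 0.522 and 0.405 in siNC libraries. Rrm2 over Rrm1 averaged 0.573 ± 0.00812 in siCircGigyf2 libraries and 0.602 ± 0.0174 in siNC libraries (SD, n = 3 each). Its groups nearly met, at 0.580 in siCircGigyf2 replicate 2 and 0.583 in siNC replicate 1. The groups did not overlap for any of these 3 ratios. The two-sided exact permutation p was 0.1, the smallest that 3 against 3 libraries can give (0.167 adjusted over the 5 ratios computed). Since the pairs were chosen after their values were seen, this p cannot decide whether the ratios differ. Cdt1 over Gmnn averaged 2.53 ± 0.218 in siCircGigyf2 libraries and 2.73 ± 0.538 in siNC libraries, and Dbf4 over Cdc7 3.06 ± 0.415 in siCircGigyf2 libraries and 2.94 ± 0.204 in siNC libraries, both with overlap (exact permutation p = 0.7).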
